A study of Mus musculus with 6 samples.

Results

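The genes described here are *Plau*, *Plaur*, *Plat*, *Serpine2*, *F3*, *Tfpi*, *Tfpi2*, *Procr* and *Thbd*, which encode regulators of plasminogen activation and of blood coagulation. They were taken by gene symbol, and all 9 were found among the 20327 symbols counted in each library. Plasminogen activators cut plasminogen into plasmin, a protease that dissolves fibrin and cleaves matrix proteins, and inhibitors of the serpin family block them by trapping the protease in a covalent complex. Coagulation starts when tissue factor on stromal cells meets plasma factor VII, and it is held back by Kunitz-type inhibitors and by the thrombomodulin and protein C system. In an ulcerated colon, plasma proteins leak into the stroma, so that fibroblasts meet the substrates of these proteases.

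RNA came from cells of the colon of C57BL/6 mice of the genotype *Il11-Egfp*, aged 9 to 15 weeks, which drank 1.5% DSS (dextran sulfate sodium, which causes colitis) for 5 days and then plain water. On day 7, cells lacking Ter119, CD45, CD31 and EpCAM were sorted into EGFP-Positive and EGFP-Negative fractions with 3 libraries each, named IL-11+ and IL-11- below as the study names them. The mice carry *Egfp* within a bacterial artificial chromosome copy of *Il11*, so that EGFP stands for activity of this transgene, and both fractions came from DSS-treated mice. Sequencing was by 5′Tag-seq, which counts short tags from the 5′ side of polyA RNA, and it gave totals of 1057170, 1078179 and 1169817 tags for EGFP-Negative replicates 1, 2 and 3 and of 1046538, 1022851 and 1049048 for EGFP-Positive replicates 1, 2 and 3.

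*Il11* separated the fractions as labelled, with 28, 51 and 89 tags in replicates 1, 2 and 3 of IL-11- fibroblasts and 1357, 732 and 2658 in those of IL-11+ fibroblasts. Because *Egfp* was placed inside *Il11*, tags of reporter RNA may be part of these counts. The fibroblast markers *Pdgfra*, *Dcn* and *Col1a2* were abundant in every library, and *Pdgfra* ranged from 661 to 742 tags across the IL-11- and from 688 to 768 across the IL-11+ group. Markers of other stromal cells were also found, mostly in the IL-11- fraction. There *Rgs5* (1951, 1700 and 1800 tags) and *Myh11* (850, 943 and 1332) exceeded *Pdgfra* in every replicate. The name IL-11- fibroblasts is therefore used only as the study's name for that fraction. All 6 smooth muscle markers were lower in IL-11+ libraries, and together they had 2272, 2838 and 4136 tags in replicates 1, 2 and 3 of IL-11- fibroblasts against 77, 130 and 307 in those of IL-11+ fibroblasts, with *Myh11* the most abundant in the IL-11- libraries. Of 6 pericyte markers, 4 were lower in IL-11+ libraries, and the list summed to 2617, 2278 and 2404 tags in replicates 1, 2 and 3 of IL-11- fibroblasts and 890, 779 and 732 in those of IL-11+ fibroblasts, with *Rgs5* holding most of the sum in the IL-11- libraries only. The other pericyte markers went the opposite way without being called, *Kcnj8* with a log2 fold change of 0.71 and *Abcc9* with 0.66. The glial marker *Gfap* had 22, 23 and 26 tags in the IL-11- libraries and 1, 0 and 1 in the others. Of endothelial cells, which express much thrombomodulin and protein C receptor, the defining markers *Pecam1* and *Vwf* had 0 to 1 tags per library. *Tek*, the only endothelial marker with enough tags for a test, was called lower (33, 24 and 42 against 17, 7 and 5 tags) and held most of the 42, 31 and 44 endothelial marker tags in IL-11- and of the 17, 10 and 8 in IL-11+ replicates 1, 2 and 3. Leukocyte markers gave 18 to 43 tags per library over 11 genes, lymphatic endothelial markers 1 to 14 over 3 genes and epithelial markers 9 to 54 over 5 genes, most of them from *Lgals4*, which was called lower, with *Epcam* at 0 to 1. In such bulk libraries, fewer cells of a type cannot be told apart from less RNA per cell.

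Of the 9 genes, IL-11+ fibroblasts had more *Serpine2* and *Plaur* and less *Plat* than the IL-11- fraction, and 6 were not called. Calls needed an adjusted p under 0.05 by the quasi-likelihood test of edgeR together with a fold change over 2, and this p measures the spread between libraries. Over all 9334 tested genes, 3.44% were called higher and 6.37% were called lower by this rule. The median of their log2 fold changes was 0.30 over the 9 genes and -0.01 over all tested genes. In 4 of the 9 genes (*Serpine2*, *Plaur*, *Procr* and *Tfpi*) every IL-11+ library was above every IL-11- library, which held for 14.5% of all tested genes. *Plat* was the 1 gene with the opposite order, found in 16.7% of tested genes. The 9 genes were chosen with earlier results of these data known, so these shares describe them and do not test them as a set. No stretch of 50 nucleotides near the 5′ ends of these 9 genes was found in another gene, as searched in the annotated transcripts.

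**Figure D1:**
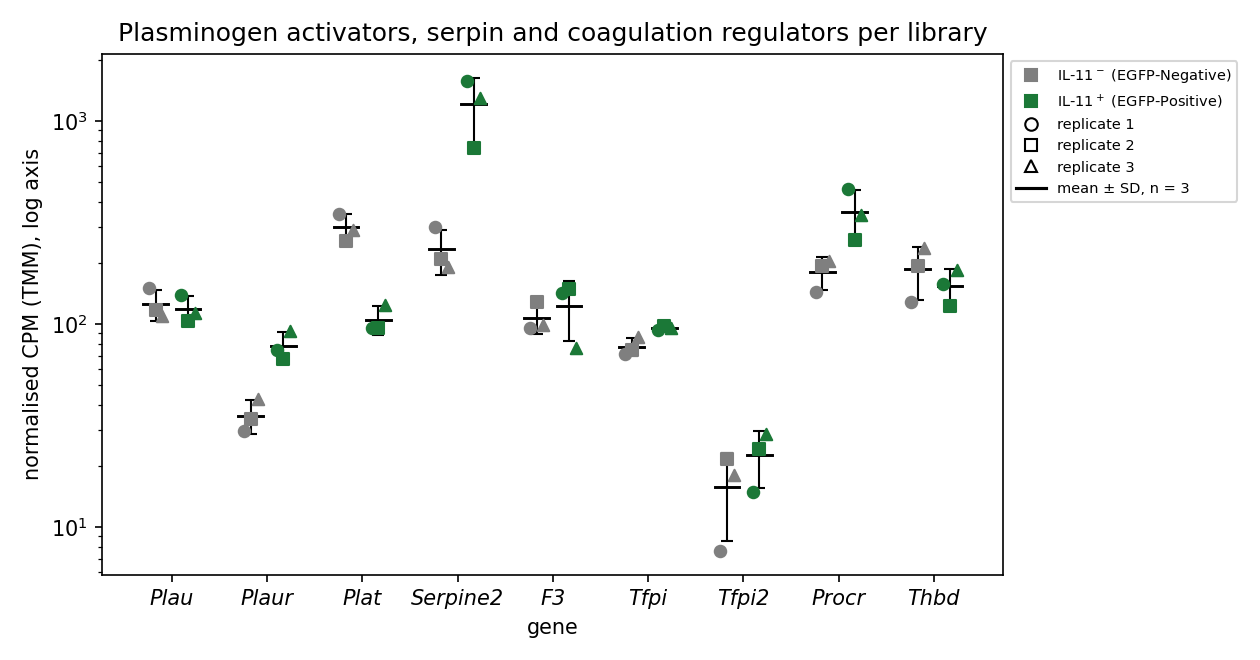
Level of each of the 9 genes in every library as TMM-normalised CPM on a log axis, with grey symbols for the 3 IL-11- and green symbols for the 3 IL-11+ libraries, symbol shapes for replicates 1 to 3, and black bars for mean ± SD. The green symbols lie above all grey symbols for *Plaur*, *Serpine2*, *Tfpi* and *Procr*, and below them for *Plat*, while the groups overlap for *Plau*, *F3*, *Tfpi2* and *Thbd*.

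Of the plasminogen activators and their receptor, *Plat* fell, *Plaur* rose and *Plau* was not called. *Plat* encodes tissue-type plasminogen activator, which is best known for dissolving fibrin, and lies at chr8:22757727-22782844 (plus strand, 14 exons in GRCm38). It had 367, 272 and 356 tags in replicates 1, 2 and 3 of IL-11- fibroblasts and 90, 94 and 131 in those of IL-11+ fibroblasts. The highest IL-11+ library stood well under the lowest IL-11- library. In normalised CPM, *Plat* fell from 300 ± 47.5 to 105 ± 17.04 (SD, n = 3), which on the log2 scale is a change of -1.51 (SE 0.182, Benjamini-Hochberg adjusted p = 1.11e-05, quasi-likelihood test of edgeR). It was lower in IL-11+ fibroblasts in all 14 other settings tried, with log2 fold changes between -1.65 and -1.40. The smooth muscle markers, 4 of the 6 pericyte markers, *Gfap*, *Tek* and *Lgals4* were low in the same libraries as *Plat*, and their part in its fall was not tested.

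*Plau* encodes urokinase-type plasminogen activator, which works at the cell surface, and lies at chr14:20836660-20843385 (plus strand, 11 exons). It had 158, 124 and 133 tags in replicates 1, 2 and 3 of IL-11- fibroblasts and 132, 102 and 119 in those of IL-11+ fibroblasts. The groups overlapped, and the means of 126 ± 22.2 and 119 ± 18.8 normalised CPM (SD, n = 3) were closer than the spread between replicates. The log2 fold change was -0.08 with a 95% interval from -0.46 to 0.31 (Benjamini-Hochberg adjusted p = 0.843, quasi-likelihood test of edgeR), an interval that does not reach a 2-fold change in either direction.

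*Plaur* encodes the receptor that holds urokinase at the plasma membrane through a lipid anchor. It lies at chr7:24462484-24475968 (plus strand, 7 exons) and had 31, 36 and 52 tags in replicates 1, 2 and 3 of IL-11- fibroblasts and 70, 66 and 97 in those of IL-11+ fibroblasts. Replicate 3 was the highest library of both groups, and the groups did not overlap. *Plaur* rose from 35.4 ± 6.68 to 77.9 ± 13.1 normalised CPM (SD, n = 3), which on the log2 scale is a change of 1.13 (SE 0.219, Benjamini-Hochberg adjusted p = 0.00122, quasi-likelihood test of edgeR). Its size is close to the fold-change threshold. Without replicate 1 of the IL-11- or replicate 3 of the IL-11+ group, its log2 fold change was just under 1 (0.9987 and 0.9885), so that the call was lost although the quasi-likelihood test of edgeR gave an adjusted p of 0.0108 and 0.00727. Over all settings the adjusted p of *Plaur* was at most 0.0129.

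*Serpine2* rose most of the 9 genes. It encodes protease nexin-1, a secreted serpin that binds to the cell surface and matrix and inhibits thrombin, urokinase, tissue-type plasminogen activator and plasmin. The gene lies at chr1:79794197-79861180 (minus strand, 9 exons). It had 315, 222 and 232 tags in replicates 1, 2 and 3 of IL-11- fibroblasts and 1496, 730 and 1361 in those of IL-11+ fibroblasts. Even IL-11+ replicate 2, the lowest of its group, stood far above every IL-11- library. *Serpine2* rose from 233 ± 59.0 to 1208 ± 429 normalised CPM (SD, n = 3), which on the log2 scale is a change of 2.37 (SE 0.248) or 5.18-fold, with a Benjamini-Hochberg adjusted p of 1.91e-06 by the quasi-likelihood test of edgeR. By log2 fold change it ranked 43 from the top among the 9334 tested genes, and its call was kept in all 14 other settings (2.14 to 2.64). Fibroblast markers summed over 9 genes, led by *Dcn*, were also higher in these libraries (22651, 22870 and 29468 tags against 39580, 33253 and 31637, with 2 of the 9 called higher). *Dcn* alone gave 14029, 11620 and 14508 tags against 24693, 16830 and 15091, and *Lum*, also of the 9, went the other way with 1072, 1296 and 2153 against 681, 902 and 992 tags. The part of these markers in the *Serpine2*, *Plaur* and *Procr* values was not tested.

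The tissue factor pathway showed no call. *F3* encodes tissue factor, the membrane receptor that starts coagulation, and lies at chr3:121723537-121735048 (plus strand, 6 exons). It had 100, 136 and 121 tags in replicates 1, 2 and 3 of IL-11- fibroblasts and 135, 146 and 80 in those of IL-11+ fibroblasts. IL-11+ replicate 3 was the lowest of all 6 libraries in normalised CPM and the other IL-11+ libraries were the highest, so the groups overlapped. The log2 fold change of *F3* was 0.18 with a 95% interval from -0.28 to 0.65 (Benjamini-Hochberg adjusted p = 0.656, quasi-likelihood test of edgeR), and with IL-11+ replicate 3 left out it was 0.44.

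*Tfpi* encodes tissue factor pathway inhibitor, which blocks factor Xa and the complex of tissue factor with factor VIIa, and lies at chr2:84432855-84476775 (minus strand). It had 75, 79 and 105 tags in replicates 1, 2 and 3 of IL-11- fibroblasts and 88, 96 and 100 in those of IL-11+ fibroblasts. After scaling, the IL-11+ libraries were nearly equal (95.4 ± 2.10 normalised CPM, SD, n = 3) and stood above the IL-11- libraries (77.4 ± 7.75), although the raw tags overlapped. This log2 fold change of 0.30 did not pass the test (95% interval -0.07 to 0.66, Benjamini-Hochberg adjusted p = 0.294, quasi-likelihood test of edgeR).

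*Tfpi2* encodes a related Kunitz-type inhibitor that is secreted into the matrix and inhibits plasmin among other proteases, and lies at chr6:3962595-3988919 (minus strand). It was the member with the fewest tags, with 8, 23 and 22 in IL-11- and 14, 24 and 30 in IL-11+ replicates 1, 2 and 3. Replicate 1 was the lowest library of both groups, and the groups overlapped, although the IL-11+ library was the higher of each same-numbered pair in normalised CPM. At this depth the 95% interval of its log2 fold change ran from -0.26 to 1.29 around 0.51 (Benjamini-Hochberg adjusted p = 0.414, quasi-likelihood test of edgeR), so that neither no change nor a 2-fold rise lies outside it.

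The protein C system is represented by a receptor and its partner thrombomodulin, and neither was called. *Procr* encodes the endothelial protein C receptor, which presents protein C to the complex of thrombin and thrombomodulin, and which also marks some stromal and progenitor cells. It lies at chr2:155751117-155755471 (plus strand, 4 exons) and had 150, 206 and 249 tags in replicates 1, 2 and 3 of IL-11- fibroblasts and 438, 256 and 360 in those of IL-11+ fibroblasts. The lowest IL-11+ library, replicate 2, had 260 normalised CPM and the highest IL-11- library had 204. The means were 181 ± 32.8 and 356 ± 103 normalised CPM (SD, n = 3), a 1.97-fold difference that passed the adjusted p (0.00262 with Benjamini-Hochberg adjustment, quasi-likelihood test of edgeR) and missed the fold-change threshold. Its log2 fold change of 0.98 (SE 0.207) crossed that threshold in 4 of the 6 fits with 1 library left out, reaching 1.17 without IL-11+ replicate 2, and it was 0.75 without IL-11+ replicate 1. It also crossed the threshold with no filter on low counts (1.01).

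*Thbd* encodes thrombomodulin, which turns thrombin from a clotting enzyme into an activator of protein C, and is a gene with 1 exon at chr2:148404466-148408188 (minus strand). It had 135, 205 and 289 tags in replicates 1, 2 and 3 of IL-11- fibroblasts and 148, 121 and 194 in those of IL-11+ fibroblasts. The IL-11- libraries spanned a wide range that took in most of the IL-11+ values. The means of 186 ± 54.5 and 155 ± 31.1 normalised CPM (SD, n = 3) gave a log2 fold change of -0.27 (95% interval -0.71 to 0.17, Benjamini-Hochberg adjusted p = 0.464, quasi-likelihood test of edgeR). The part of endothelial cells in the *Thbd* and *Procr* values was not tested.

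Ratios of tags within a library do not depend on how libraries are scaled. Of 7 ratios computed, 5 are given, for gene pairs or sums that were chosen after the values of these genes had been seen, and tags were not divided by transcript length, so only the change of a ratio between groups can be read. There were 2.32, 2.19 and 2.68 *Plat* tags for each *Plau* tag in IL-11- replicates 1, 2 and 3 and 0.682, 0.922 and 1.10 in IL-11+ replicates 1, 2 and 3. The ratio of *Serpine2* to *Plat* tags went from 0.858, 0.816 and 0.652 to 16.6, 7.77 and 10.4, the widest change of these 5. For *Plaur* over *Plau*, the ratio was 0.196, 0.290 and 0.391 in IL-11- and 0.530, 0.647 and 0.815 in IL-11+ replicates 1, 2 and 3. *Procr* over *Thbd* stood near 1 in IL-11- libraries (1.11, 1 and 0.862) and at 2.96, 2.12 and 1.86 in IL-11+ libraries. In each of these 4 ratios the groups did not overlap, which gives p = 0.10 in a two-sided exact permutation test, the smallest that 3 libraries against 3 allow, and 0.117 after Benjamini-Hochberg adjustment over the 7. Because the pairs were chosen with the values of their genes known, these p values add no support beyond the values of the single genes. This test reassigns libraries between the groups without regard to replicate number, so it ignores any pairing of same-numbered libraries. *F3* over the sum of *Tfpi* and *Tfpi2* overlapped, with 0.953 to 1.33 in IL-11- and 0.615 to 1.32 in IL-11+ libraries (p = 0.80, two-sided exact permutation test).

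Beyond the 9 genes, the wider plasminogen and coagulation system was followed in 5 lists with 53 distinct genes, of which 40 were in the files and 18 had enough tags for a test. By edgeR's test 0 of the 18 were called higher (3.44% of all tested genes were), 3 were called lower (6.37% of all tested genes were) and 15 were not called, with a median log2 fold change of -0.22. The lists were also chosen with earlier results of these data known. DESeq2 also called 0 higher, and 5 had a positive log2 fold change with an unadjusted p under 0.05 in edgeR, none of them over 2-fold. List genes with a negative change passed this unadjusted p too, among them *Vtn*, *Gas6*, *S100a10* and *Serping1*. The share of all tested genes that pass it is not given here, so the 5 cannot be set against a background. Of the genes of plasminogen activation and inhibition 9 of 13 were tested and 2 were lower, and of the coagulation cascade and fibrinogen 2 of 12 were tested and 1 was lower. No gene was called among other inhibitors of coagulation proteases (1 of 5 tested), thrombin and protease-activated receptors (1 of 3) and further serpins (5 of 7). Many coagulation factors are made in the liver. Of 22 genes that were not tested, 15 had at most 3 tags in every library, among them the fibrinogen genes *Fga*, *Fgb* and *Fgg* and the factor genes *F5*, *F8*, *F9* and *F13a1*. A count of 3 tags, taken as the floor, corresponds to 2.46 to 3.18 normalised CPM and, like the intervals of single counts, covers counting error only, since PCR can copy 1 molecule into several tags. Plasminogen itself (*Plg*) was not analysed here.

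The 3 called genes of the lists were *Vtn*, *Gas6* and *S100a10*. *Vtn* encodes vitronectin, a plasma and matrix protein that is a ligand of the urokinase receptor. It had 31, 24 and 52 tags in replicates 1, 2 and 3 of IL-11- fibroblasts and 0, 2 and 7 in those of IL-11+ fibroblasts, so that it passed the filter on low counts only through the IL-11- libraries, and it was no longer tested when any of them was left out. Its log2 fold change was -3.35 (SE 0.527, Benjamini-Hochberg adjusted p = 0.00017, quasi-likelihood test of edgeR). With no filter on low counts it was also called lower (-3.31), and it ranged from -4.79 without EGFP-Positive replicate 3 to -2.81 without EGFP-Positive replicate 1. Smooth muscle markers, 4 of the 6 pericyte markers, *Gfap*, *Tek* and *Lgals4* were low in the same libraries, and their part in the *Vtn*, *Gas6* and *S100a10* values was not tested.

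*Gas6*, a vitamin K-dependent ligand of TAM receptor kinases that is related to protein S, had 326, 267 and 265 tags in replicates 1, 2 and 3 of IL-11- fibroblasts and 107, 99 and 111 in those of IL-11+ fibroblasts. The IL-11+ libraries were nearly equal and far under the others (log2 fold change -1.29, SE 0.177, Benjamini-Hochberg adjusted p = 4.3e-05, quasi-likelihood test of edgeR). *S100a10*, which forms a plasminogen-binding complex with annexin A2 at the cell surface, had 346, 441 and 296 tags in replicates 1, 2 and 3 of IL-11- fibroblasts and 182, 150 and 142 in those of IL-11+ fibroblasts. Its log2 fold change of -1.04 (SE 0.202, Benjamini-Hochberg adjusted p = 0.00127, quasi-likelihood test of edgeR) lies near the threshold, and the call was lost without EGFP-Negative replicate 2 (-0.85), EGFP-Positive replicate 2 (-0.998) or EGFP-Positive replicate 3 (-0.93). Its partner *Anxa2* had 141, 177 and 221 tags in replicates 1, 2 and 3 of IL-11- fibroblasts and 190, 265 and 212 in those of IL-11+ fibroblasts, and its log2 change of 0.48 was not called (Benjamini-Hochberg adjusted p = 0.0831, quasi-likelihood test of edgeR).

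**Figure D2:**
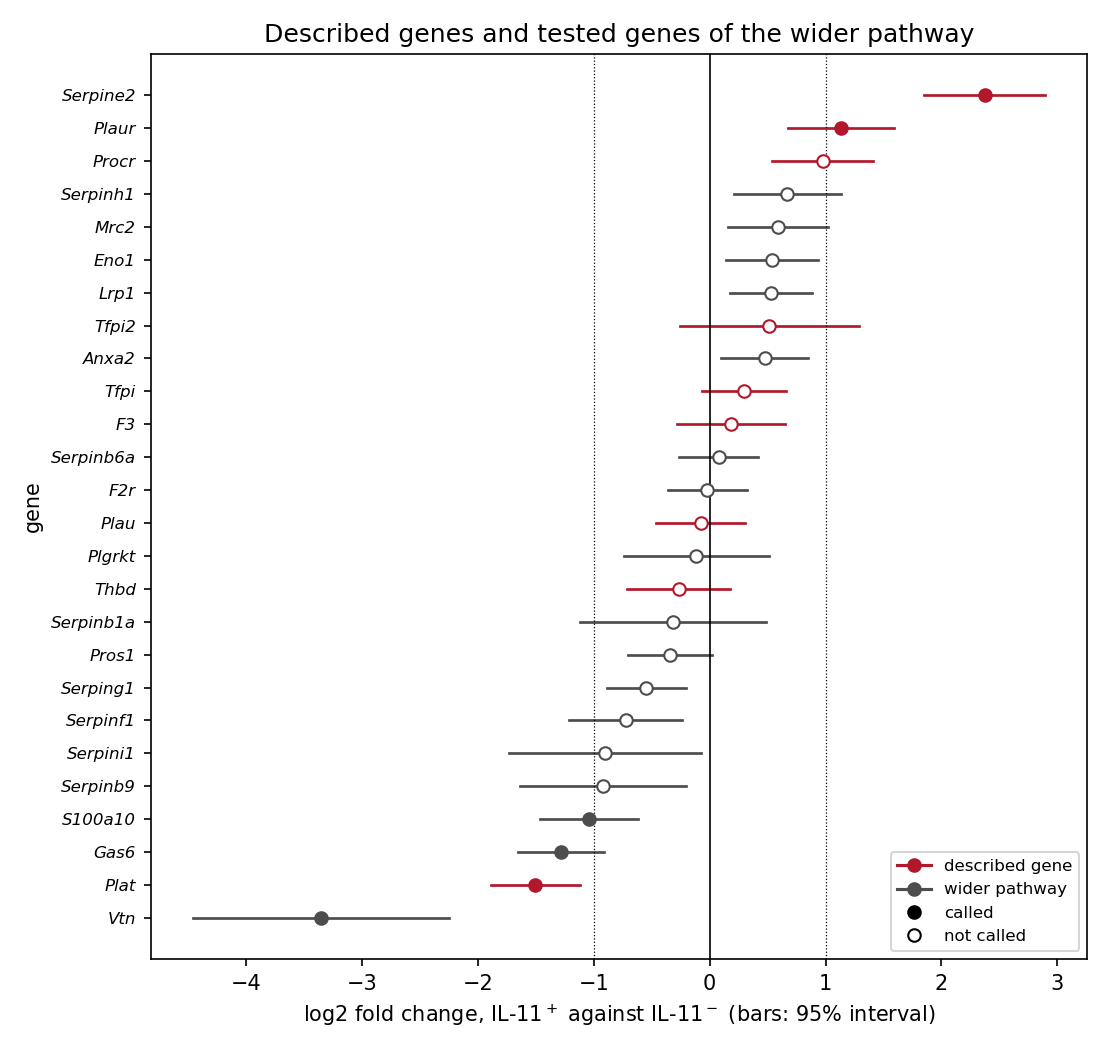
Log2 fold change of IL-11+ against IL-11- fibroblasts for the 9 described genes (red) and 17 tested genes of the wider lists (grey), with 95% intervals as bars, filled points for called genes and dotted lines at a 2-fold change. *Serpine2* stands apart at the top with 2.37, *Vtn* at the bottom with -3.35, and the intervals of *Plaur*, *Procr*, *S100a10* and *Gas6* are among those that span a dotted line.

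In other tested genes of the lists the groups did not overlap although the genes were not called. *Lrp1* encodes the endocytic receptor that clears complexes of proteases with serpins, among them those of protease nexin-1. It had 1112, 923 and 986 tags in replicates 1, 2 and 3 of IL-11- fibroblasts and 1261, 1386 and 1264 in those of IL-11+ fibroblasts, a 1.44-fold difference that passed the adjusted p alone (0.0412 with Benjamini-Hochberg adjustment, quasi-likelihood test of edgeR). This pass was lost when scaling by library size only (adjusted p = 0.0654 by edgeR) and without EGFP-Negative replicate 2 (0.200) or 3 (0.147) or EGFP-Positive replicate 1 (0.0676) or 2 (0.148). *Serping1*, the gene of the C1 inhibitor, which also inhibits kallikrein and factor XIIa, had 1927, 1805 and 1984 tags in replicates 1, 2 and 3 of IL-11- fibroblasts and 1111, 1217 and 1182 in those of IL-11+ fibroblasts. Each group was narrow, and the log2 fold change was -0.55 (SE 0.162, Benjamini-Hochberg adjusted p = 0.0265, quasi-likelihood test of edgeR), under the fold-change threshold. With a single library left out, its adjusted p by edgeR ranged from 0.0245 without EGFP-Negative replicate 3 to 0.103 without EGFP-Negative replicate 1, and only the former was under 0.05. With all libraries and no filter on low counts, the adjusted p of *Serping1* by edgeR was 0.051. *Serpinb9*, an inhibitor of granzyme B, had a log2 fold change of -0.92 (Benjamini-Hochberg adjusted p = 0.0806, quasi-likelihood test of edgeR). *Eno1*, a glycolytic enzyme that can bind plasminogen at the cell surface, had one of 0.54 (Benjamini-Hochberg adjusted p = 0.0651, quasi-likelihood test of edgeR), and 23.4% of the 50-nucleotide windows near its 5′ end occur in related genes and pseudogenes, so its count is less certain.

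Receptors that sense thrombin were also measured. *F2r*, the gene of the main thrombin receptor of fibroblasts, had 214, 216 and 233 tags in replicates 1, 2 and 3 of IL-11- fibroblasts and 206, 198 and 180 in those of IL-11+ fibroblasts. The groups overlapped, with a log2 fold change of -0.02 (SE 0.162). *F2rl3*, a further thrombin receptor, had 2, 6 and 1 tags in replicates 1, 2 and 3 of IL-11- fibroblasts and 10, 6 and 14 in those of IL-11+ fibroblasts, too few to pass the filter. *Serpind1*, the gene of heparin cofactor II, a thrombin inhibitor, had 2, 0 and 0 tags in replicates 1, 2 and 3 of IL-11- fibroblasts and 8, 10 and 4 in those of IL-11+ fibroblasts. The IL-11+ mean of 7.48 normalised CPM is 2.75-fold or more above the IL-11- mean, taken at the floor of 3 tags per library, while the IL-11+ library with 4 tags lies close to that floor. Both were called higher only when no filter was applied or, for *Serpind1*, also with a filter on the summed tags. *Spint2*, a Kunitz-type inhibitor of epithelial proteases, had 7, 7 and 24 tags in replicates 1, 2 and 3 of IL-11- fibroblasts and 0, 1 and 5 in those of IL-11+ fibroblasts, in the same direction as the epithelial marker *Lgals4* with 29, 25 and 40 against 7, 10 and 18 tags. *Spint2* was called lower with no filter and with the filter on summed tags. *Epcam* had 0 to 1 tags per library in both groups, and the part of epithelial cells in the *Spint2* counts was not tested. *F5* and *F2rl1* also did not overlap after scaling, with at most 4 tags in any library.

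For each called member, the tested genes with the most similar profile were found by the distance between log2(CPM + 1) values centred on each gene's mean over the 6 libraries. For *Plaur* these were *Stk17b*, *Gfpt1* and *Hgs*, at distances of 0.229, 0.241 and 0.247. *Osbpl1a*, *Adcy5* and *Scn7a* were nearest to *Plat*, at 0.230, 0.301 and 0.322. *Serpine2* had *Arl4c* at 0.357, then *Ptges*, the gene of prostaglandin E synthase, at 0.745 and the neutrophil chemokine gene *Cxcl2* at 0.825. All of these share the direction of their member, as such a search over 2 groups must find.

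Promoter sequences from RefSeq (GRCm38.p6, 250 bases before to 50 bases after a transcript start) were found for 6 of the 9 genes, *F3*, *Plaur*, *Procr*, *Serpine2*, *Tfpi* and *Tfpi2*. They were searched on both strands for an AP-1 site (TGANTCA), a CRE (TGACGTCA), a GAS element (TTCNNNGAA), an NF-κB site, a TATA box (TATAAA) and a GC box (GGGCGG). The AP-1 letters occurred in 4 of the 6 genes and in 9.0% of all 27025 genes with a promoter in the table. No match to the CRE, GAS or NF-κB motif was found in these windows, where 2.0%, 9.6% and 1.9% of all genes have one. GC boxes occurred in 5 of the 6 genes and in 38.2% of all genes, and TATAAA occurred in 15.7% of all genes and, on the strand opposite to the gene, in *Tfpi* before and in *F3* after the transcript start. The AP-1 matches are shown with 15 flanking bases on each side, in the direction of the gene, with the match in capitals, because *Plaur* and *Procr* carry the same 7 letters as their match. The *F3* window holds another match of the same pattern, TGAATCA, in lower case. The matches lie at chr7:24462414-24462420 (plus strand, 69 bases before the start) in *Plaur*, chr2:155751063-155751069 (plus strand, 154 bases) in *Procr*, chr3:121723402-121723408 (plus strand, 135 bases) in *F3*, and chr6:3968446-3968452 (minus strand, 77 bases before 1 of the 3 starts listed) in *Tfpi2*. Distances are counted from the RefSeq transcript start, which for *Procr*, *Serpine2* and this start of *Tfpi2* lies downstream of the gene start given above. The *Serpine2* window (chr1:79858616-79858915) and this *Tfpi2* window (chr6:3968326-3968625) lie inside the genes, so the sequence at the gene starts given above was not searched there for *Serpine2*.
Plaur: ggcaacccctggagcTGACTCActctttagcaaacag
Procr: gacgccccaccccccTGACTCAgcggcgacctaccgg
F3: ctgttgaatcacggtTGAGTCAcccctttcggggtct
Tfpi2: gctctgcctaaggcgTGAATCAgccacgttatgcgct
The letters were thus present in *Plaur*, which was called higher, and in *Procr*, *F3* and *Tfpi2*, which were not called, and no match stood in the window of *Serpine2*. A match is a description of the sequence only.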

How the data were processed

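The deposited values are tag counts per gene symbol, without normalization. Per the labels and the study's methods, the authors trimmed reads with cutadapt 1.18 and mapped them in a single orientation to RefSeq RNA (mm10) with Bowtie2 2.2.5. How multi-mapping tags were handled is not given in the sources used here.

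A gene was tested (9334 genes) when 3 or more of the 6 libraries held 10 or more tags of it. This was done in R 4.3.3 with edgeR 4.0.16 (TMM, quasi-likelihood test across all genes, Benjamini-Hochberg adjustment), with calls at adjusted p under 0.05 plus more than 2-fold change. SEs and 95% intervals come from the F statistic and its degrees of freedom. The printed tests use no replicate block, since the methods name no pairing. Replicate numbers pair the libraries by the rule used here, since same-numbered libraries deviated together over 5063 genes (r = 0.23, 0.185 and 0.264), and the study names 3 mice for this experiment. The labels do not say which library came from which mouse. The fit was tested on simulated data. Alternatives were RLE, library size, iterative TMM, DESeq2 1.42.0, other filters, the block, no fold threshold and leaving out each library.

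Members and lists were chosen with earlier results of these data known. Named by rule were all members, called or non-overlapping list genes, *F2r*, *Lrp1*, *Il11* and the 3 nearest profiles per called member. Outside this rule, cell-type markers and some untested list genes with at most 3 tags were named as examples. Further list genes are marked where they were named after their values were seen. Positions and 50-nucleotide windows (first 300 bases) come from GENCODE M21 (GRCm38). Protein sequences were not used here, and some items are not reported here.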

Additional observations from a re-analysis of the deposited data

How the results depend on the processing

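*Serpine2* and *Plat* kept their calls in all 14 alternatives, *Plaur* in 12, and no called member changed direction. *Procr* gained a call in 6 of the 14. The number of genes called higher was 321 and moved to 638 with the adjusted p alone. Of the wider lists, 0 genes were called higher by edgeR, against 2 with no filter on low counts (*Serpind1* and *F2rl3*), 1 with a sum of at least 10 tags (*Serpind1*) and 2 with the adjusted p alone (*Lrp1* and *Serpinh1*, the latter named after its values were seen), while DESeq2 gave 0. The 3 genes called lower became 5 with the adjusted p alone, which added *Serping1* and *Serpinf1* (named after its values were seen). With each library left out in turn, genes called higher numbered 251 to 306, genes called lower 341 to 579 (595 with all libraries), members called higher 1 to 3, members called lower 1, list genes called higher 0 and list genes called lower 1 to 3, where leaving out IL-11+ replicate 2 added *Serpini1* (named after its values were seen) and lost *S100a10*. The lowest value, 341, came without IL-11- replicate 1, where 200 of the 595 genes no longer passed the filter, and leaving out IL-11- replicate 2 gave 355. The replicate block gave 337 higher and 648 lower genes with 2 members higher and 1 lower, and changed no call of a member or list gene, though *Anxa2*, *Eno1*, *Serpinb9* and *Mrc2* (named after its values were seen) then had adjusted p of 0.0208, 0.0160, 0.0459 and 0.00918 by edgeR. At this depth, genes with few tags such as *Tfpi2* have wide intervals.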

Other observations

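Markers of cells that the sort was set to remove were detected at low counts. Erythroid and platelet markers held 65, 3 and 241 tags in replicates 1, 2 and 3 of IL-11- fibroblasts and 13, 6 and 17 in those of IL-11+ fibroblasts, with *Hbb-bs* at 34, 0 and 141 tags in the IL-11- libraries. Mesothelial markers, which the sort did not address, held 14, 6 and 27 tags over 5 genes in replicates 1, 2 and 3 of IL-11- fibroblasts and 0, 0 and 2 in those of IL-11+ fibroblasts, with *Wt1* the most abundant in the summed tags.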
